A study of Mus musculus with 6 samples.

Results

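Axon guidance ligands and receptors were examined in cells labelled as bladder epithelial cells of 7-day-old mice (P7). Members were chosen by a rule on gene symbols, with earlier results of these data known. Ligands were semaphorins, ephrins, netrins and Slits, and receptors were plexins, neuropilins, Eph receptors, Dcc, Neo1, Unc5 and Robo genes. The rule found 70 genes among 18193 that a probe set of the array names alone. Of these, 35 were ligands and 32 were receptors. The other 3, Unc50, Unc5cl and Plxna4os1, share only the letters of the symbol, are neither ligand nor receptor, and were not called. Ephb2 was not analysed here.

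Each group held 3 Affymetrix Mouse Genome 430 2.0 arrays, numbered 1, 2 and 5 in both groups, 6 arrays in all. One group was labelled as DsRed-positive and the other as DsRed-negative bladder epithelial cells, DsRed being a red fluorescent protein. Mice of both groups were of the cross FVB/N x C57BL/6, all labelled as male, and carried the same reported allele, B6;129P-Upk1btm1Zhang/J, of the urothelial surface gene Upk1b. Trypsin was used to free the epithelium of bladder rings, which was then lifted off and digested to single cells, and the RNA was amplified in 2 rounds. The sources used here give neither the way in which the groups of cells were separated nor whether arrays came from separate animals. The p-values therefore cover only sample-to-sample spread, which may be technical. Sex-linked genes, given below, set both arrays numbered 1 apart from those numbered 2 and 5.

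Guidance cues were named for steering growing axons, and the same proteins act between cells of epithelia, vessels and mesenchyme. Secreted class 3 semaphorins bind neuropilins, which signal through plexins, whereas the membrane-bound classes mostly bind plexins directly. Netrins bind Dcc, neogenin and Unc5 receptors, Slits bind Robo receptors, and ephrins on one cell bind Eph receptor kinases on its neighbour.

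The 6 arrays separated by group, and 1 pair did not match its labels. Correlations over probe sets were 0.921 to 0.94 within the DsRed-positive arrays, 0.845 to 0.892 within the DsRed-negative arrays and 0.674 to 0.766 between groups. Upk1b gave log2 signals of 16.48, 16.7 and 16.67 on DsRed-positive arrays 1, 2 and 5, against 13.27, 12.25 and 11.53. Sample titles name the groups uroplakin +ve and -ve, so uroplakin genes are no independent check of the grouping. Both arrays numbered 1 gave Xist signals of 15.08 and 15.48, against at most 8.89 on the other 4, and Eif2s3y signals of 6.32 and 5.44, against at least 11.78, which goes against their label as male. Counts are therefore given with and without that pair. The labelled cell type was checked against marker lists. All 7 urothelial, 4 basal and 5 general epithelial markers were higher in DsRed-positive cells, and their mean log2 level on the DsRed-negative arrays was still 9.46 to 11.37.

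DsRed-negative cells also carried markers of other cell types, at levels that moved with the groups. These markers go against a label of epithelial cells alone for the DsRed-negative group. Its urothelial markers summed to linear levels of 9320 to 23400, against 304000 to 342000 on the DsRed-positive arrays. All 7 fibroblast and matrix markers were lower in DsRed-positive cells, with mean log2 levels of 9.9 to 10.49 against 16.03 to 16.34 and summed linear levels of 14500 to 27000 against 605000 to 695000. Smooth muscle and mural markers were lower for 5 of 6 tested (summed 2350 to 3180 against 110000 to 147000), endothelial markers for 3 of 5 (1650 to 1830 against 8190 to 13100) and leukocyte markers for 5 of 6 (2280 to 3380 against 26700 to 39100). Of 5 nerve and Schwann cell markers tested, Uchl1 was higher and none was lower (summed 10900 to 13800 against 1740 to 2560). The higher sum came from Uchl1, at log2 13.23 to 13.65 against 8 to 8.82. S100b (-0.74), Sox10 (-0.22), Elavl4 (-0.73) and Prph (-1.23) had negative differences and were not called. Sox10, the transcription factor that defines Schwann cells, gave 8.69 to 8.98 against 8.59 to 9.55. No tested marker lay at or below the control level, set on each array at the 95th percentile of 27 control probe sets without spiked RNA (7.41 to 8.03), on all 3 arrays of a group. Cnn1, Pecam1, Tie1 and Tubb3 were among the listed markers without a tested probe set. In such bulk RNA, fewer cells of a type and less RNA per cell cannot be told apart, and the part of the other cell types in the results below was not tested.

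**Figure D1:**
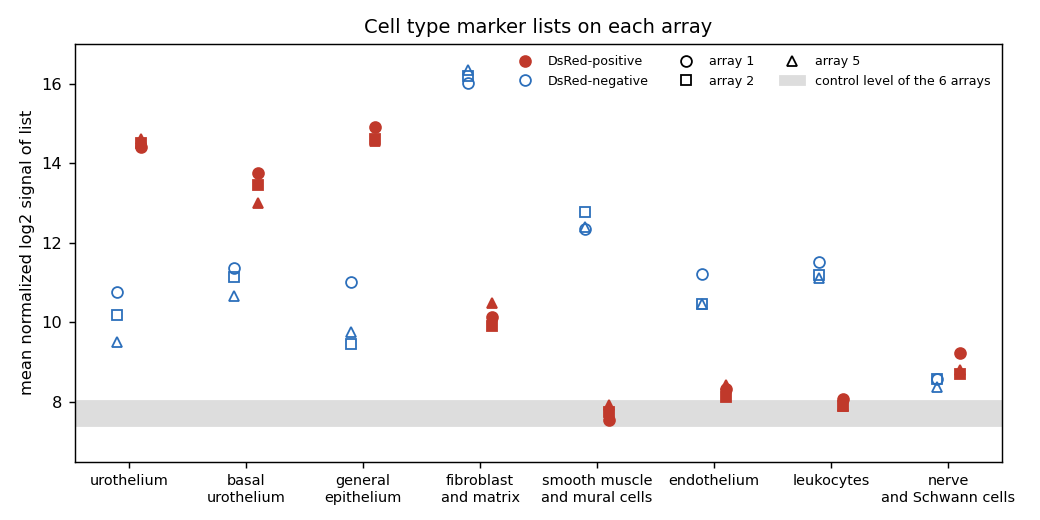
Mean normalized log2 signal of each cell type marker list (y axis) on each array, with filled red symbols for DsRed-positive and open blue symbols for DsRed-negative arrays, symbol shape for the array number and a grey band for the control levels. The fibroblast list lies at 9.9 to 10.49 on the DsRed-positive and 16.03 to 16.34 on the DsRed-negative arrays. The nerve and Schwann cell list, in which only Uchl1 was higher, lies at 8.71 to 9.23 and 8.37 to 8.59.

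More guidance genes were lower than higher in DsRed-positive cells. Of the 70 members, 61 passed the filter on dim probe sets and were tested, and 4 were called higher, 18 lower and 39 neither at an adjusted p under 0.05. The share called was 36.1%, against 20.5% of all 14222 genes tested. By direction, 6.56% of tested members were higher (9.21% of all genes) and 29.5% lower (11.3% of all genes). The median log2 difference, DsRed-positive minus DsRed-negative, was -0.91 over members and 0.04 over all genes. Values of the groups did not overlap for 40 of 61 members, or 65.6%, against 43.4% of all genes.

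Both ligands and receptors had more lower than higher calls. Among 31 ligands tested, Sema4g and Sema4a were higher and 8 were lower, with a median log2 difference of -1.18 and a fitted range of -4.38 to 2.47. Among 28 receptors tested, Epha1 and Unc5a were higher and 10 were lower, with a median of -0.67 and a fitted range of -5.85 to 3.81. In 5 called members all arrays of 1 group were at or below the control level, so their fitted values are no measured size, and with them at their bounds the 3 medians were the same. At least 4-fold differences, with those 5 at their bounds, were found for 14 of the 22 called members, 12 of them lower. The count depended on the scaling between arrays: 8 members were higher and 14 lower with arrays centred on their medians, and 5 higher and 23 lower with values as deposited. The median of all genes was then 0.37 and -0.16, and that of members -0.64 and -1.17. Without both arrays numbered 1, limma called 0 members higher (5 at an unadjusted p under 0.05) and 8 lower, beside 480 genes higher and 785 lower in all. The 8 were Epha3, Nrp1, Nrp2, Ntn1, Sema3c, Sema6d, Neo1 and Unc5b.

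**Figure D2:**
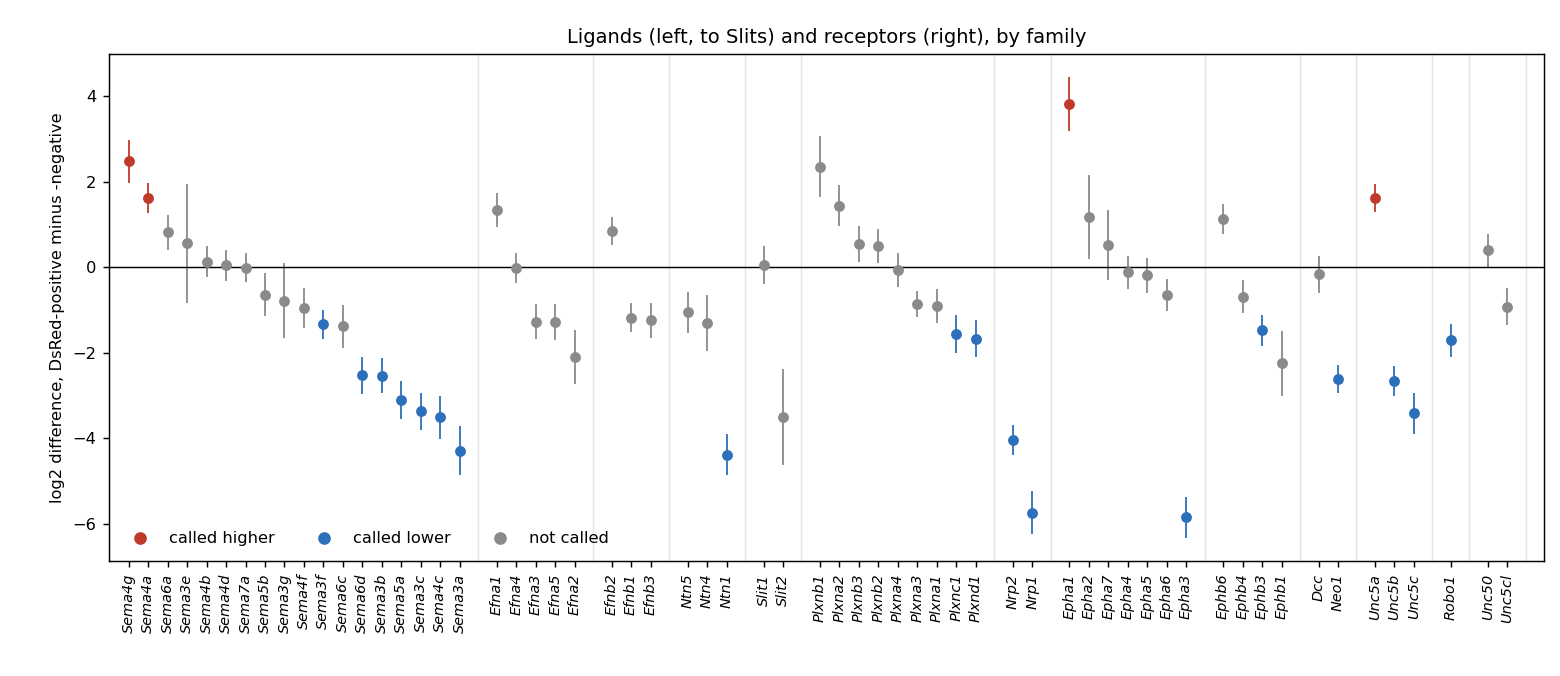
Fitted log2 difference of each of the 61 tested members, DsRed-positive minus DsRed-negative (y axis; bars are standard errors of the limma fit), by family along the x axis, with red for called higher, blue for called lower and grey for not called. Nrp1, above the control level on all arrays, lies at -5.74, and no ephrin is coloured. Points for Epha3, Ntn1, Sema5a, Plxnc1 and Epha1 are fitted values of genes at or below the control level in 1 group, for which only a bound on the fold is known.

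The start sites of a few called members are shown so that their base composition can be seen directly. Promoter windows from RefSeq (build GRCm38.p6), each 300 bases from 250 before to 50 after an annotated start, matched 59 of the 70 members with 75 windows. Below are those of the called member with the most positive and the most negative fitted log2 difference of each role that had an entry, and of Nrp1. Capitals mark the GC box GGGCGG on either strand, and each is written 5′ to 3′ on the gene's strand. The windows lie at chr19:44989094-44989393 (Sema4g, plus strand), chr5:13396534-13396833 (Sema3a, plus), chr6:42373219-42373518 (Epha1, minus), chr16:63864126-63864425 (Epha3, minus) and chr8:128358823-128359122 (Nrp1, plus).
Sema4g: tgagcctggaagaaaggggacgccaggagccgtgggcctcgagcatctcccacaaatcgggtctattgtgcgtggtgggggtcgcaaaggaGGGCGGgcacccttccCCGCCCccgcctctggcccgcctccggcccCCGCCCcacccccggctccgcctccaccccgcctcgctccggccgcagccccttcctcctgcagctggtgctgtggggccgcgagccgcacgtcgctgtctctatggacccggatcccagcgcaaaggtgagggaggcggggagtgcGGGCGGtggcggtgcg
Sema3a: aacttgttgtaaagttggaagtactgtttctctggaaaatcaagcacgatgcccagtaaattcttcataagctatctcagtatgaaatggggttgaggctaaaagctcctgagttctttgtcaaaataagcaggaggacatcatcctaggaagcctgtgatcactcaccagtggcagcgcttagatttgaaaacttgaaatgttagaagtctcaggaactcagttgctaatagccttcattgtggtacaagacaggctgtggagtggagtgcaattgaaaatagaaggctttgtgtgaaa
Epha1: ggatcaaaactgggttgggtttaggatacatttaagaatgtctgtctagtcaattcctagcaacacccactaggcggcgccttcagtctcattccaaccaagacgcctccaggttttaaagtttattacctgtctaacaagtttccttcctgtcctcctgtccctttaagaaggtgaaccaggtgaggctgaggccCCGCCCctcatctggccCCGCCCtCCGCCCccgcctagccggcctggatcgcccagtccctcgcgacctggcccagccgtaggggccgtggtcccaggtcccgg
Epha3: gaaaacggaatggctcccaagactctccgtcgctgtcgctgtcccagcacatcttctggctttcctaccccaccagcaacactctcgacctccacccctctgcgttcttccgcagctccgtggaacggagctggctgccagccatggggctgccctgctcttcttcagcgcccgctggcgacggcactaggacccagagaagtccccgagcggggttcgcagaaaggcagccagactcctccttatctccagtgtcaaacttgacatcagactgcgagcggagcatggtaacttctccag
Nrp1: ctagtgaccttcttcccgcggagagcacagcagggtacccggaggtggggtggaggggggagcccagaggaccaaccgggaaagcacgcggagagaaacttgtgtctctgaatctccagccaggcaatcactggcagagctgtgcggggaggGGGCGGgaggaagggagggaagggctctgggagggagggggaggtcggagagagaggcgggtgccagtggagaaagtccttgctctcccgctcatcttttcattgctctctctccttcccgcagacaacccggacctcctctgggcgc

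The higher members Sema4g and Epha1 had 4 and 3 GC boxes in these windows, and the lower members Sema3a, Epha3 and Nrp1 had 0, 0 and 1. CG pairs numbered 30 in Sema4g, 14 in Epha1, 2 in Sema3a, 18 in Epha3 and 14 in Nrp1, at GC contents of 73.3%, 58.0%, 41.3%, 60.7% and 64.0%. Over all called members, a GC box lay in 6 of 7 windows of the 4 higher members (85.7%) and in 12 of 17 windows of 15 lower members (70.6%). Over all members it lay in 55 of 75 windows (73.3%), against 35.7% of 32851 windows of 27025 genes, and median GC content was 64.3% against 52.7%. The letters TATAAA lay in 2 member windows (2.67%), against 13.6% of all windows. AACNGGTT, the sequence bound by grainyhead-like factors of epithelia, lay in 2 (2.67%), against 2.09%, and GACCACCCA, bound by the GLI factors of hedgehog signalling, in 0, against 0.253%. All motifs were searched on both strands, and no motif holds another.

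Class 3 semaphorins, the secreted ligands of neuropilins, gave 4 of the 8 lower ligands, and 6 of the class were tested. Sema3a, which repels axons and vessels through Nrp1, had log2 signals of 11.85, 10.56 and 12.57 on DsRed-negative arrays 1, 2 and 5 and of 6.96, 7.16 and 8 on the DsRed-positive arrays, given in this order throughout. The groups lay far apart, and 2 of the DsRed-positive arrays were at or below the control level. The difference was -4.29 ± 0.57 (SE, n = 3 arrays per group; adjusted p = 0.00222). Sema3c, a ligand of both neuropilins, gave 15, 15.09 and 15.26 in DsRed-negative and 12.11, 12.27 and 10.85 in DsRed-positive cells. It was thus 10.4-fold lower (-3.37 ± 0.44; adjusted p = 0.00212) but stayed well above the control level on all 6 arrays.

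Sema3b and Sema3f, both described as tumour suppressor genes in other tissues, were lower by smaller amounts. Sema3b gave 11.94, 13.08 and 12.19 against 9.96, 10.12 and 9.51 (-2.54 ± 0.41; adjusted p = 0.00537). For Sema3f the signals were 11.67, 11.86 and 11.16 against 10.21, 10.02 and 10.44, a separation of the groups by less than 1 log2 unit between the nearest arrays (-1.34 ± 0.35; adjusted p = 0.0361). The call of Sema3f was lost without any 1 of 5 arrays, with an adjusted p of 0.127 without DsRed-positive array 2, 0.122 without DsRed-positive array 1, 0.0793 without DsRed-positive array 5, 0.0772 without DsRed-negative array 1 and 0.0714 without DsRed-negative array 2. Arrays centred on their medians also lost it (adjusted p = 0.136). The other tested probe sets of Sema3f, at -0.11 and -0.78, were not called (adjusted p = 0.888 and 0.261). Of those of Sema3b, one was called lower (-3.15; adjusted p = 0.0077) and another was not called (-0.11; adjusted p = 0.927). Sema3e, a ligand of Plxnd1, had no such separation: 11.99, 7.15 and 7.65 against 9.95, 11.05 and 7.47, with 1 high DsRed-negative array and 1 low DsRed-positive array. Sema3g differed by -0.78 ± 0.88 (adjusted p = 0.585), and Sema3d was too dim to be tested.

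Class 4 semaphorins, which span the membrane, differed in both directions. Sema4g, whose signals were 9.32, 10.8 and 9.58 in DsRed-negative and 12.08, 12.01 and 13.02 in DsRed-positive cells, was 5.54-fold higher (2.47 ± 0.51; adjusted p = 0.0147). Sema4a, an immune and retinal semaphorin, gave 11.82, 12.23 and 12.33 against 13.43, 13.69 and 14.09, and was 3.06-fold higher (1.62 ± 0.35; adjusted p = 0.0182). Every DsRed-positive array lay above every DsRed-negative one for both genes. Sema4c, a ligand of Plxnb2, went the other way and was 11.4-fold lower, with 11.71, 10.93 and 11.25 against 8.09, 6.78 and 8.49 (-3.51 ± 0.51; adjusted p = 0.00321). The adjusted p of Sema4g was 0.0562 without DsRed-positive array 5, and that of Sema4a was 0.0709 without the same array and 0.0625 without DsRed-positive array 2. Sema4b, Sema4d and Sema4f, with differences of 0.13, 0.04 and -0.95, were not called.

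Of the other membrane semaphorins, Sema5a and Sema6d were lower. Sema5a, which carries thrombospondin repeats, was above the control level only on the DsRed-negative arrays, at 9, 8.45 and 10, against 6.06, 6.09 and 6.01. Computed against that level it was at least 3.16-fold lower (adjusted p = 0.00318). Sema6d, a ligand of Plxna1, gave 12.28, 12.09 and 12.74 against 10.62, 9.52 and 9.36 (-2.53 ± 0.44; adjusted p = 0.00719), and all 3 DsRed-positive arrays were above the control level. Another tested probe set of Sema6d was called lower by limma (-2.62, adjusted p = 0.00586). Those at -0.69 and 0.39 were not called (adjusted p = 0.321 and 0.719). Sema5b (-0.64), Sema6a (0.81), Sema6c (-1.38) and Sema7a (-0.01) were not called, with adjusted p of 0.434, 0.211, 0.103 and 0.989. Sema6b was too dim to be tested.

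Ntn1, the founding secreted netrin, was lower in DsRed-positive cells. Its signals were 10.05, 11.17 and 10.91 on the DsRed-negative arrays and 6.40, 5.66 and 6.91 on the DsRed-positive arrays. All 3 DsRed-positive values lay below the control level, so Ntn1 was at least 9.29-fold lower (adjusted p = 0.000869). A second, dimmer probe set for Ntn1 did not show this: it gave 8.25, 6.80 and 7.59 against 7.26, 7.88 and 7.50, a difference of 0. Ntn4, a basement membrane netrin, and Ntn5 had differences of -1.3 ± 0.65 (-0.53 without DsRed-positive array 5) and -1.05 ± 0.48 (adjusted p = 0.215 and 0.184), and Ntn3 was too dim to be tested.

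Slits, the secreted ligands of Robo receptors, were not called in the main fit. Slit2 gave 12.99, 12.98 and 10.98 against 10.28, 9.98 and 6.16, so the groups did not overlap, but both spread widely (-3.51 ± 1.12; adjusted p = 0.0722). Array 5 was the lowest of both groups. Without DsRed-positive array 5 the difference was -2.18 (adjusted p = 0.106), and without both arrays numbered 5 Slit2 was called lower at -2.88 (adjusted p = 0.0204). It was also called lower by limma with the array number as a block (-3.51; adjusted p = 0.0127). Slit1 gave 8.44, 8.94 and 9.63 against 8.47, 9.57 and 9.14, a difference of 0.05 ± 0.45. Slit3 exceeded the control level on 1 of 6 arrays and was not tested.

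Ephrins, the membrane-bound ligands of Eph receptors, were not called by limma in any of 8 genes, although 5 had a negative and 2 a positive difference at an unadjusted p under 0.05. Efnb2, which marks arteries and binds Ephb4, had high signals in both groups, 13.69, 14.08 and 13.90 against 14.93, 14.62 and 14.65 (0.84 ± 0.32; adjusted p = 0.115). Groups did not overlap for Efnb2, and of its other tested probe sets 1 was called higher (1.29 ± 0.36; adjusted p = 0.0452) and 1 was not called (-0.37 ± 0.41). Efna1, an ephrin of many epithelia and vessels, gave 8.70, 8.65 and 9.41 against 10.81, 9.97 and 9.99 (1.34 ± 0.40; adjusted p = 0.0594). The remaining differences were -2.09 for Efna2, -1.28 for Efna3 and Efna5, -1.18 for Efnb1, -1.24 for Efnb3 and -0.01 for Efna4. Under at least 1 other setting 7 of the 8, all but Efna4, were called, and limma with trend and robust estimation called 4.

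Both neuropilins, the co-receptors of class 3 semaphorins and of VEGF, were lower in DsRed-positive cells. Nrp1 had deposited signals of 20755.76, 20911.05 and 26351.89 in DsRed-negative and 324.77, 127.48 and 697.49 in DsRed-positive cells. On the normalized log2 scale these were 14.35, 14.34 and 14.60 against 8.80, 7.70 and 9.56, a 53.6-fold difference (-5.74 ± 0.50; adjusted p = 0.000374). All 6 arrays were above the control level, though DsRed-positive array 2 only just. Nrp2 gave 12.18, 12.67 and 12.87 against 8.59, 8.74 and 8.27 and was 16.5-fold lower (-4.04 ± 0.35; adjusted p = 0.000365). Called probe sets numbered 3 of 4 for Nrp1 and 3 of 3 for Nrp2, all lower.

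**Figure D3:**
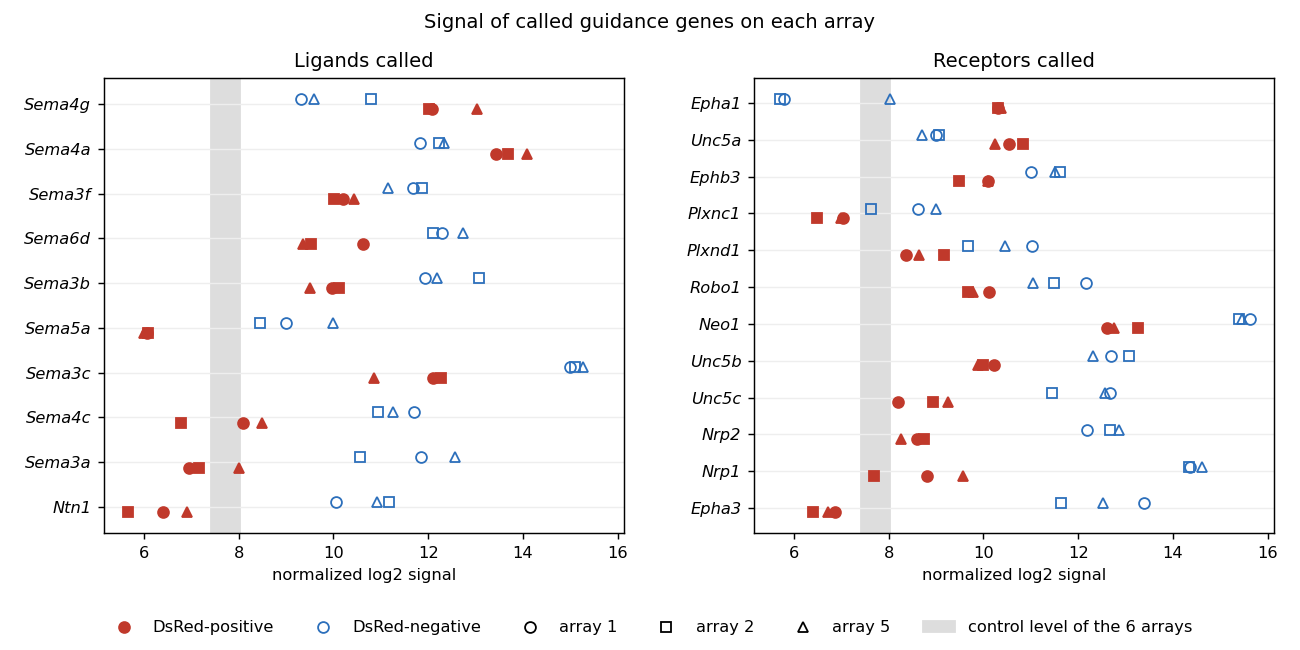
Normalized log2 signal (x axis) of the 10 called ligands (left) and 12 called receptors (right) on each array, with filled red symbols for DsRed-positive and open blue symbols for DsRed-negative arrays, symbol shape for the array number and a grey band for the control levels. The groups do not overlap for any of the 22, which were called on these same values, nor for 43.4% of all genes. Nrp1 lies at 14.34 to 14.60 on the DsRed-negative and 7.70 to 9.56 on the DsRed-positive arrays.

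Plexins, the signalling receptors of semaphorins, had 2 of 9 genes called, both lower, a share of 22.2% that is near the 20.5% of all genes. Plxnd1, a plexin of vessels, gave 11.03, 9.68 and 10.46 against 8.36, 9.16 and 8.65 (-1.67 ± 0.44; adjusted p = 0.0404). Plxnc1, the receptor of Sema7a, gave 8.61, 7.63 and 9.01 against 7.03, 6.5 and 6.99. The DsRed-positive values all lay below the control level, which made it at least 1.9-fold lower (adjusted p = 0.0473). DsRed-negative array 2 was also below its control level of 7.69, and only 1 of 6 probe sets of Plxnc1 was tested. Both adjusted p-values were near the threshold. Each was lost without any 1 of 5 arrays, with adjusted p between 0.0701 (without DsRed-positive array 2) and 0.153 (without DsRed-positive array 1) for Plxnd1 and between 0.105 (without DsRed-negative array 1) and 0.151 (without DsRed-positive array 2) for Plxnc1. With arrays centred on their medians the adjusted p of Plxnd1 was 0.0586.

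Plxnb1, the receptor of Sema4d, had the most positive difference of the plexins without being called. Its signals were 10.29, 10.49 and 7.93 in DsRed-negative and 12.19, 12.34 and 11.24 in DsRed-positive cells (2.35 ± 0.71; adjusted p = 0.0614), with DsRed-negative array 5 apart from the other 2 and below its control level. Without that array the difference was 1.55 (adjusted p = 0.0708). A second Plxnb1 probe set, at 9.35, 8.94 and 8.93 against 10.70, 10.72 and 10.50, was called higher (1.57 ± 0.32; adjusted p = 0.0143). Plxna2, a receptor of class 6 semaphorins, gave 9.70, 10.47 and 9.53 against 10.91, 12.22 and 10.90 without overlap (1.44 ± 0.49; adjusted p = 0.0843). With the brightest probe set chosen anew, its difference was 0.38 without DsRed-positive array 2 and 0.75 without DsRed-positive array 5 (adjusted p = 0.66 and 0.361). Plxna1, Plxna3, Plxna4, Plxnb2 and Plxnb3 had differences of -0.91, -0.86, -0.07, 0.49 and 0.54 and were not called.

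Of the netrin receptors among the tested members, all but Dcc were called, and Unc5 genes were called in both directions. Neo1 (neogenin), the relative of Dcc that also binds repulsive guidance molecules, gave 15.63, 15.40 and 15.46 against 12.60, 13.26 and 12.76, a difference of -2.62 ± 0.33 (adjusted p = 0.00184). Unc5b, a netrin receptor of vessels, gave 12.69, 13.07 and 12.32 against 10.22, 9.99 and 9.89 (-2.66 ± 0.34; adjusted p = 0.00197). Unc5c followed with 12.67, 11.44 and 12.56 against 8.20, 8.94 and 9.26 (-3.42 ± 0.47; adjusted p = 0.0026). In these 3 genes, by the brightest probe set, every array was above the control level, and the groups were more than 2 log2 units apart at the nearest arrays. A second tested probe set was not called for Unc5b (-0.83 ± 0.43; adjusted p = 0.229) or for Unc5c (-1.93 ± 1.23; adjusted p = 0.329).

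Unc5a, in contrast, was 3.07-fold higher in DsRed-positive cells. It gave 9, 9.06 and 8.70 in DsRed-negative and 10.55, 10.83 and 10.24 in DsRed-positive cells (1.62 ± 0.33; adjusted p = 0.0148), with little spread in either group. Its adjusted p was 0.0692 without DsRed-positive array 1 and 0.0675 without DsRed-positive array 2. Dcc, the receptor through which netrin attracts axons, gave 8.87, 9.79 and 8.44 against 8.67, 8.64 and 9.27, overlapping values with a difference of -0.17 ± 0.44. Unc5d was at or below the control level on all 6 arrays and was not tested.

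Robo1, the Slit receptor, was 3.27-fold lower, with 12.16, 11.48 and 11.05 against 10.12, 9.67 and 9.77 (-1.71 ± 0.39; adjusted p = 0.0234). The groups did not overlap, but the call was lost without any 1 of 4 arrays: the adjusted p was 0.0889 without DsRed-positive array 2, 0.0804 without DsRed-positive array 5, 0.0668 without DsRed-positive array 1 and 0.0501 without DsRed-negative array 1. With arrays centred on their medians it was 0.0748. A second tested probe set of Robo1 differed by only -0.26 ± 0.62. Robo2 was at or below the control level on all 6 arrays.

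EphA receptors held 1 lower and 1 higher member, each above the control level in 1 group alone. Epha3, a receptor of mesenchymal and stromal cells, had signals of 13.39, 11.64 and 12.53 in DsRed-negative cells and of 6.88, 6.41 and 6.72, all below the control level, in DsRed-positive cells. It was at least 32.6-fold lower (fitted difference -5.85 ± 0.48; adjusted p = 0.000304), and both of its tested probe sets were called. Epha1, an Eph receptor known from epithelia, was the mirror image: 5.80, 5.72 and 8.02, all at or below the control level, in DsRed-negative cells and 10.30, 10.30 and 10.37 in DsRed-positive cells. It was at least 5.71-fold higher (fitted difference 3.81 ± 0.63; adjusted p = 0.00567), also with both tested probe sets.

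The remaining EphA receptors did not separate the groups. Epha2, a receptor of epithelia and of Efna1, gave 11.68, 12.12 and 8.08 against 11.54, 11.67 and 12.18, so that DsRed-negative array 5 alone was low (1.17 ± 0.99; adjusted p = 0.464). Without that array its difference was -0.11. Epha4, Epha5, Epha6 and Epha7 had differences of -0.12, -0.19, -0.65 and 0.51, with overlapping groups, and Epha8 and Epha10 were too dim to be tested.

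Among EphB receptors only Ephb3, a receptor of intestinal crypts and other epithelia, was called. It gave 11, 11.62 and 11.51 against 10.09, 9.49 and 10.10, a 2.79-fold difference (-1.48 ± 0.36; adjusted p = 0.0291). The groups were separate, but the adjusted p was 0.109 without DsRed-positive array 2, 0.0849 without DsRed-positive array 1, 0.0693 without DsRed-positive array 5, 0.0669 without DsRed-negative array 5 and 0.0598 without DsRed-negative array 2. Centring arrays on their medians gave 0.0973. Ephb1 (-2.25 ± 0.76), Ephb4 (-0.69 ± 0.39) and the kinase-dead Ephb6 (1.12 ± 0.35) were not called, with adjusted p of 0.0847, 0.272 and 0.0692.

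Probe sets for the same gene gave a check of the members within the arrays. Several tested probe sets were present for 32 members, and none of these had probe sets called in both directions. Of the 15 called members with several, all tested probe sets had the same sign in 12 and were all called the same way in 6. The other 7 called members rest on 1 tested probe set each. Neo1 shows a mixed case: a second probe set was called lower at -2.77, and the third, near the control level, differed by 0.25.

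**Figure D4:**
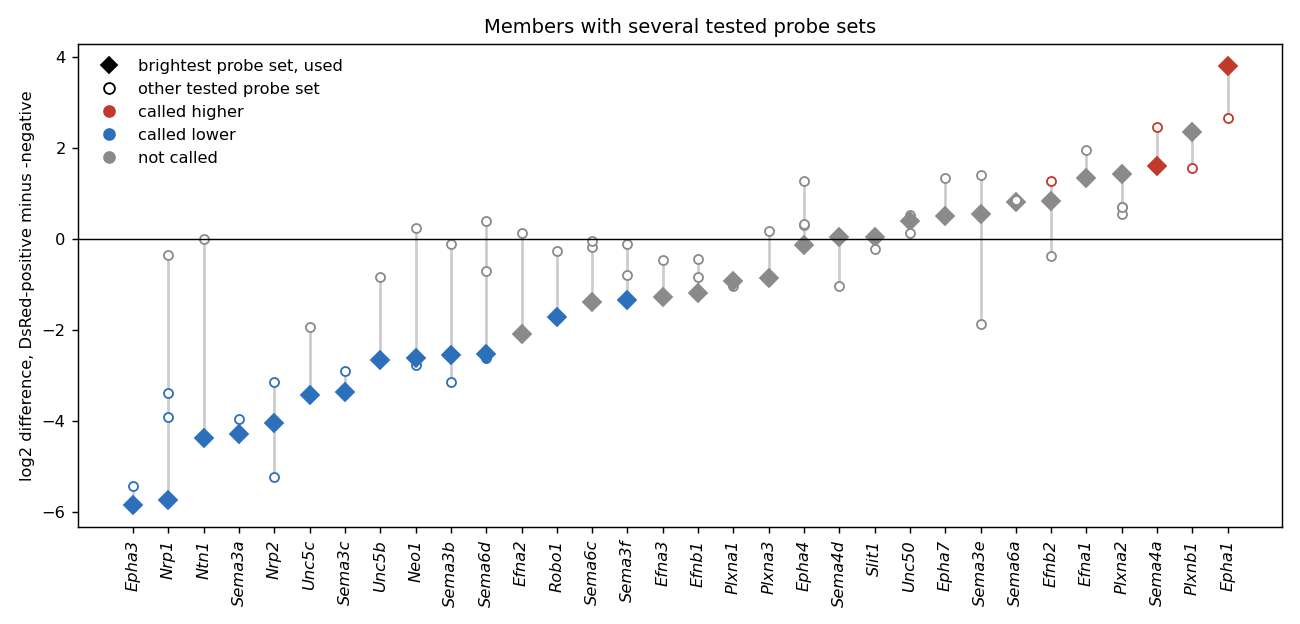
Log2 difference, DsRed-positive minus DsRed-negative (y axis), of every tested probe set of the 32 members with several, with diamonds for the brightest probe set, which represents the gene, open circles for the others and colour for the call. For Epha3 both probe sets lie at -5.85 and -5.43, while for Ntn1 they lie at -4.38 and 0.

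Ligands and receptors that were both lower were those of the neuropilins, Plxnd1 and the netrin receptors. Of 38 known pairs listed, 34 had both partners tested. Both partners were lower in 8 pairs: Sema3a with Nrp1, Sema3c with Nrp1, Nrp2 and Plxnd1, Sema3f with Nrp2, and Ntn1 with Neo1, Unc5b and Unc5c. In 0 pairs were both partners called higher by limma. Among the listed pairs only Sema4a and Plxnd1 were called in opposite directions, with the ligand higher at 1.62 and the receptor lower at -1.67. The list is not complete and leaves out Ntn1 with Unc5a. Those partners were also called in opposite directions, Ntn1 at least 9.29-fold lower and Unc5a higher at 1.62.

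In other pairs one partner was called without the other. In 7 pairs only the ligand and in 8 only the receptor was called, and in 10 neither was. Epha1 was at least 5.71-fold higher while its ligand Efna1, at 1.34, was not called, and Epha3 was at least 32.6-fold lower while its ligand Efna5, at -1.28, was not called. Sema4c was lower at -3.51 beside an uncalled Plxnb2 at 0.49, and Sema5a was at least 3.16-fold lower beside an uncalled Plxnb3 at 0.54. Pairs share members, Ntn1 standing in 4 and Plxnd1 in 3, so their number is not a number of separate observations.

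**Figure D5:**
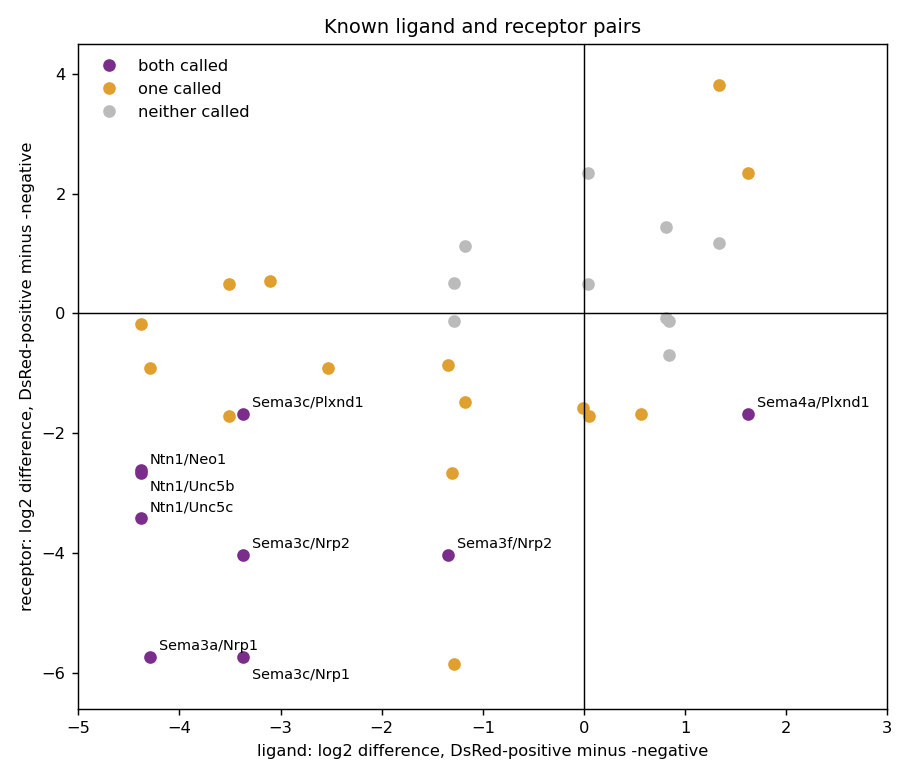
Log2 difference of the ligand (x axis) and of the receptor (y axis), DsRed-positive minus DsRed-negative, for the 34 known pairs with both partners tested, in purple where both were called, orange where one was and grey where neither was. The 8 pairs with both partners lower lie in the lower left, and Sema4a with Plxnd1 is the purple point in the lower right.

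Other genes of the guidance pathway were divided more evenly. Of 69 listed, 63 were tested, 8 were higher and 10 lower (28.6% called, against 20.5% of all genes), with a median log2 difference of -0.1. Of 46 genes listed as effectors, the membrane protease Adam10 included, 5 were higher and 6 lower. That share, 23.9%, is near the 20.5% of all genes. Among 17 other ligands and receptors 3 were higher and 4 lower (41.2% called). The lower genes with the largest fitted differences were Dpysl3, a collapsin response mediator that carries semaphorin signals (-4.96 ± 0.35; adjusted p = 0.000172), Flrt2, a ligand of Unc5 receptors (at least 14.4-fold lower; adjusted p = 0.000855), Mical1, an actin-oxidizing enzyme bound to plexins (-4.37 ± 0.82; adjusted p = 0.0102), and the adaptor Grb10 (-3.9 ± 0.47; adjusted p = 0.0015). Their arrays did not overlap between groups, as was the case for 43.4% of all genes. Dpysl3 gave 13.14, 13.75 and 13.56 against 8.27, 8.89 and 8.40.

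The higher genes with the largest fitted differences were Chl1, a neuropilin-binding adhesion molecule (3.55 ± 0.77; adjusted p = 0.0182), Flrt3, a relative of Flrt2 (3.42 ± 0.41; adjusted p = 0.00143), Chn1, a Rac regulator downstream of Eph receptors (at least 5.14-fold higher; adjusted p = 0.00234), and the actin-regulating kinase Limk2 (2.91 ± 0.55; adjusted p = 0.0105). The proteoglycan Sdc1, measured at 6.86-fold higher (2.78 ± 0.32; adjusted p = 0.00123), exceeds the bound of Chn1. Flrt2 and Flrt3 thus differed in opposite directions: Flrt2 gave 10.43, 12.13 and 11.47 against 6.31, 7.10 and 6.19, and Flrt3 gave 10.07, 9.51 and 10.77 against 13.72, 13.63 and 13.26. Without both arrays numbered 1, 5 of the listed genes were higher and 5 lower. With arrays centred on their medians 13 were higher.

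The 22 called members differed in how they held without both arrays numbered 1. The 8 that stayed called had fitted differences of -5.51 (Epha3), -5.85 (Nrp1), -4.2 (Nrp2), -4.73 (Ntn1), -3.71 (Sema3c), -2.93 (Sema6d), -2.55 (Neo1) and -2.73 (Unc5b). For the 14 that did not, differences kept their sign. Lower ones were -3.95 for Sema3a, -3.42 for Sema4c, -3.19 for Sema5a, -2.85 for Unc5c and -2.78 for Sema3b, with adjusted p of 0.0613, 0.0615, 0.0577, 0.0533 and 0.051. Higher ones were 3.44 for Epha1, 2.3 for Sema4g, 1.65 for Sema4a and 1.61 for Unc5a, with adjusted p of 0.0931, 0.119, 0.0992 and 0.12. The last 5, Ephb3, Plxnc1, Plxnd1, Robo1 and Sema3f, had adjusted p of 0.0996 to 0.255.

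Of the members too dim to be tested, none had its brightest probe set above the control level on more than 2 of 6 arrays. These were Ntn3, Sema3d, Sema6b, Slit3, Epha8, Epha10, Robo2, Unc5d and the antisense transcript Plxna4os1. Slit3 reached 9.40 on DsRed-negative array 5 and was at or below the control level on the other 5 arrays. Sema3d reached 9.07 on DsRed-negative array 2, and its second probe set reached 8.75 on DsRed-negative array 5.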

How the data were processed

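RNA of cells labelled as P7 bladder epithelial cells was hybridised to 6 Affymetrix arrays, 3 DsRed-positive and 3 DsRed-negative, grouped by title and source label. The authors deposited linear intensity values per probe set. The submitters' processing notes name GCOS, with no version or settings. Trimmed means (2% off each end) of the deposited arrays were all 1500.01, so arrays had been scaled alike. Before log2 and quantile normalization 39.84 was added, which is the 20th percentile over the table. This compresses folds of dim probe sets. Of 45101 probe sets, 64 were controls and 30175 passed a filter at the 33rd percentile of mean log2 (7.18). Groups were compared by limma 3.58.1 in R 4.3.3 (eBayes after lmFit, two-sided), with Benjamini-Hochberg adjustment over all of them and a threshold of 0.05. Folds are those of the offset, normalized values, and levels are not compared between genes. Platform annotation gave gene names: 34945 probe sets had 1 symbol, 932 several and 9160 none here. The brightest tested single-gene probe set stood for a gene. A gene at or below the control level on every array of a group has a fold against that level, given as at least N-fold. The number of arrays limits the precision. Genes named are all called members, others by family or pair, and the 4 called genes of the wider pathway list with the largest difference in each direction. Members and lists were chosen with earlier results of these data known. Scripts were tested on simulated data. Alternatives were other scalings, offsets, filters, probe set rules, eBayes settings, array weights, the array number as a block, and leaving out arrays singly or by number.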

Additional observations from a re-analysis of the deposited data

How the results depend on the processing

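All 22 called members kept the sign of their difference in each of the 20 other settings in which they were tested (Sema5a and Plxnc1 were not tested with a filter at the 50th percentile, nor Sema5a without DsRed-negative array 5), and 13 of the 22 were called in all 6 fits that left out 1 array. Calls of 22 members remained with values as deposited, 18 with arrays centred on their medians, and 8, 16 and 12 without both arrays numbered 1, 2 and 5. Of the 39 members not called, 13 were called in at least 1 other setting and 12 changed sign in at least 1. The cause of these changes was not tested, beside the fewer arrays of some fits.

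Counts of higher against lower calls depended on scaling. Higher members were 18.2% of called members and 45% of all called genes in the main setting, 17.9% and 37.6% with values as deposited, and 36.4% and 64.7% with arrays centred on their medians. That centring called 8 members higher (4 ligands, 4 receptors), 13 other pathway genes and 2568 genes in all. An offset at the 50th percentile called 7 members higher (4 ligands), and averaging the probe sets of each gene called 7 (4 receptors). Without both arrays numbered 1, limma called 0 members higher, 0 ligands and 0 receptors (5, 2 and 3 at an unadjusted p under 0.05), 8 members lower (3 ligands, 5 receptors), 5 other pathway genes higher and 5 lower, and 480 genes higher and 785 lower. Without both numbered 2, 2 members were higher (1 ligand, 1 receptor), 5 other pathway genes higher and 6 lower, and 678 genes higher. Without both numbered 5, 1 member was higher (0 ligands, 3 at an unadjusted p under 0.05, and 1 receptor), 6 receptors were lower, 4 other pathway genes higher, 525 genes higher and 916 lower. Without 1 array, counts ranged from 2 to 5 for higher members, 0 to 3 for higher ligands, 1 to 3 for higher receptors, 6 to 10 for lower receptors, 6 to 10 for lower other pathway genes, and 616 to 1264 for higher genes. The lowest of these came without DsRed-positive array 1, 2 or 5. Epha2, not called, ranged from -0.11 to 1.97 without 1 array and was -0.3 without both numbered 5.

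The labels do not state that same-numbered arrays were paired, and the main fit did not pair them. Both arrays numbered 1 shared high Xist and low Eif2s3y signals. Deviations of same-numbered arrays correlated at 0.15, 0.04 and 0.05 and those of other arrays at -0.08 to 0.01, so that every array correlated best with its own number, a hint from the data and not from the design. With the number as a replicate block, 19 of the 22 calls remained, and 6 members were higher (4 receptors) and 18 lower. Ephb3, Plxnd1 and Sema3f lost their calls (adjusted p = 0.0651, 0.0869 and 0.0783), and Slit2 (0.0127), Efna2 (0.0166), Ephb1 (0.0283), Plxnb1 (0.0254) and Plxna2 (0.0499) gained one.

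With 3 arrays a group, of RNA amplified in 2 rounds, dim members have only bounds, and 9 had no testable probe set.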
